A study of Mus musculus with 20 samples.

Results

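The effect of antibiotics on the liver of control mice was measured by RNA sequencing in 5 mice given antibiotics (Control_ABX, mice 1 to 5) and 5 mice given none (Control_No_ABX, mice 6 to 10). These 10 libraries were chosen by their titles out of 20. The other 10 came from mice given anti-CD40, an antibody to a receptor of antigen-presenting cells, 5 with antibiotics (Anti-CD40_ABX, mice 11 to 15) and 5 without (Anti-CD40_No_ABX, mice 16 to 20). Every library came from a different mouse and from frozen liver. The antibiotics and their duration, the strain, sex and age of the mice, and what the control mice received in place of anti-CD40, were not stated by the labels.

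Products of gut bacteria, among them metabolites, altered bile acids and cell wall fragments, reach the liver through the portal vein, and antibiotics remove much of that supply. Hepatocytes clear drugs, steroids and bile acids with cytochrome P450 enzymes, whose genes are controlled by nuclear receptors such as the pregnane X receptor and the constitutive androstane receptor. In mouse liver, Cyp3a11 is a well known target of the pregnane X receptor, and Cyp2c genes are targets of the constitutive androstane receptor. Kupffer cells, the resident macrophages of the liver sinusoids, sense bacterial products through receptors that activate NF-kB.

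The control libraries held 6201453 to 7282519 counted fragments with antibiotics and 6196703 to 7618736 without. The deposited counts had been made at human exon positions on mouse alignments, so each gene was measured over the part of its exons that a human feature happened to cover, a median of 372 bp or 7.62% of the exon length. In all, 2200 genes passed the filter on low counts. Hepatocyte genes were counted in every library. Alb, which encodes albumin, stood at 165944 to 260504 CPM in Control_ABX livers, against 149421 to 174524 CPM in Control_No_ABX livers. Apob, the apolipoprotein of very low density lipoprotein, stood at 9979.5 to 11128 CPM in Control_ABX livers, against 9715 to 10728 CPM in Control_No_ABX livers. Levels are counts per 1000000 (CPM) after TMM scaling, and values of single mice are given in the order of their numbers. Mouse 1 (Control_ABX) and mouse 8 (Control_No_ABX) stood apart, with median rank correlations to their own group of 0.974 and 0.972, against 0.981 to 0.986 for the other 8 mice. The share of counts from mitochondrial features was 32.2% ± 2.15 with antibiotics and 28.5% ± 3.53 without (SD, n = 5 each), a difference of 3.64 percentage points (two-sided exact permutation test, p = 0.0556, with 0.00794 the smallest possible). The share from Alb was 17.6% ± 1.78 with antibiotics and 15.1% ± 0.692 without (same exact test, p = 0.0159). The part of these shares in the gene results was not tested. All 5 Control_ABX libraries sat in plate column 3, as did Control_No_ABX mice 6, 7 and 8, while mice 9 and 10 sat in column 4, so each comparison was also made within column 3. The sample titles do not name a plate column, and whether libraries were prepared or sequenced by column is not known.

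The sequences below show which parts of the P450 genes carried the counts, and which of them a copy of the gene also holds. They were read from the mouse GENCODE M21 transcripts (mm10), 5′ to 3′ on the strand of the gene. Capitals mark bases lying in a window of 50 bases that also occurs in a transcript of another gene. The counted stretch of Cyp3a11 lay in coding sequence at chr5:145858721-145858883, minus strand, and 21.1% of its windows also occurred in Cyp3a16. The coding stretches of Cyp2c68 (chr19:39734284-39734460, minus strand) and of Cyp2c67 (the longer of its pair, chr19:39639857-39639968, minus strand) shared 30.5% and 100% of the windows of the whole measured part with Cyp2c69, Cyp2c40 or each other. Counts of Cyp2c67 therefore cannot be told apart from those of its copies.
Cyp3a11: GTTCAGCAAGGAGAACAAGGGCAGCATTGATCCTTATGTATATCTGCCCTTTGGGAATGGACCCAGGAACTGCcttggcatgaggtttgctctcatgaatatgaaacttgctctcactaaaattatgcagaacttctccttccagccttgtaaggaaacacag
Cyp2c68: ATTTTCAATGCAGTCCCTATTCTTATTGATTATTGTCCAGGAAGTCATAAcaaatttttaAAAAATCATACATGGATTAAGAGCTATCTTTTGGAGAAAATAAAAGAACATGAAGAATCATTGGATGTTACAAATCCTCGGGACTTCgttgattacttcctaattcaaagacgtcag
Cyp2c67: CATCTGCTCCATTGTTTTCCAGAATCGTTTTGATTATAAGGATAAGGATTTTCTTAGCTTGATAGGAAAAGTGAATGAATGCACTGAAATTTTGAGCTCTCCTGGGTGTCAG

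Promoters of the P450 genes that differed most clearly, and of the clock gene Per1, are shown with capitals marking 4 motifs searched on both strands: AGTTCA and AGGTCA, half-sites of nuclear receptors, CACGTG, the E-box, and GTTAAT, a half-site of HNF1. The windows run from 250 bases before to 50 after the annotated start (RefSeq, GRCm38.p6). The motifs do not overlap in these windows. Of 32851 mouse promoters of that length, 13.99% held AGTTCA, 16.3% AGGTCA, 7.15% CACGTG and 7.10% GTTAAT. Cyp3a11 (chr5:145879805-145880104, minus strand) held 1 AGGTCA and 1 AGTTCA, and Cyp3a59 (chr5:146079008-146079307, plus strand) held 2 AGGTCA. Cyp2c50 (chr19:40089429-40089728, plus strand) held 1 AGTTCA. The first of the listed Per1 starts (chr11:69098699-69098998, plus strand) held 1 CACGTG and 1 AGGTCA. Of the other promoters read, Cyp2c68 held 1 GTTAAT and Cyp2c29, which was not called, held 1 AGGTCA. Cyp2c67, the second Per1 start and both Esr1 starts held none of the 4 motifs. A match describes these letters only.
Cyp3a11: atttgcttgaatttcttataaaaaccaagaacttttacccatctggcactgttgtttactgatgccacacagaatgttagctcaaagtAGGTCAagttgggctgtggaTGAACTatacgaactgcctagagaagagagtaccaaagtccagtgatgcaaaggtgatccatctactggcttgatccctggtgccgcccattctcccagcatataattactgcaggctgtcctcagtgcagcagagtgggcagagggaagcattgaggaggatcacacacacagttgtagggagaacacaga
Cyp3a59: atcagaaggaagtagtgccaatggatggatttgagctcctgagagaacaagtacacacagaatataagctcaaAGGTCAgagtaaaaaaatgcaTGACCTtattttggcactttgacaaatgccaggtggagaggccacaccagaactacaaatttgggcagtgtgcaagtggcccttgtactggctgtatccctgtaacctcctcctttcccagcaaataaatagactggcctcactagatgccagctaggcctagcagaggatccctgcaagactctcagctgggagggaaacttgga
Cyp2c50: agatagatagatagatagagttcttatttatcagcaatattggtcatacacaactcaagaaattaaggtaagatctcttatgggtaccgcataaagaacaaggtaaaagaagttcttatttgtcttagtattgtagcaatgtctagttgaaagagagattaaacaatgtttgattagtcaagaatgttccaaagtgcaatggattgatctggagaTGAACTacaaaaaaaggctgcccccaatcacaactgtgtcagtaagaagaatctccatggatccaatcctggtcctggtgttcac
Per1: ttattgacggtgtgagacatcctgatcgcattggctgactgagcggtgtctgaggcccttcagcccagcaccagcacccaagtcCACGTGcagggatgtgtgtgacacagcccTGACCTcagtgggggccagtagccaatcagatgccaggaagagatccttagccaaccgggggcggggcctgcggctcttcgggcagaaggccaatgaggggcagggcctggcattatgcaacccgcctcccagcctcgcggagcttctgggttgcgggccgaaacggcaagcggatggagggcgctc

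Control_ABX and Control_No_ABX livers differed in 147 of 2200 genes (6.68%) at an adjusted p under 0.05 (edgeR's quasi-likelihood test, Benjamini-Hochberg adjustment over all genes). Of these, 76 were higher (3.45%) and 71 lower (3.23%) in Control_ABX than in Control_No_ABX. Changes were mostly small: 15 genes rose and 12 fell by 2-fold or more. The values of the groups did not overlap for 89 of the 147 called genes, while 6.23% of all tested genes did not overlap, 3.55% with higher and 2.68% with lower values in Control_ABX. When libraries were scaled by their totals instead, the median over all genes moved to -0.14 on the log2 scale, and 35 of 174 called genes were higher and 139 lower. All 147 genes kept their direction under that scaling. Leaving out each control mouse in turn left 89 to 137 calls, the fewest without mouse 4 (90) and mouse 10 (89), and 65 of the 147 genes were called in all 10 of those fits. Within plate column 3, with 5 against 3 mice, 44 genes were called, 39 of them among the 147. A fit with a term for plate column left 77 calls, 74 of them among the 147.

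**Figure D1:**
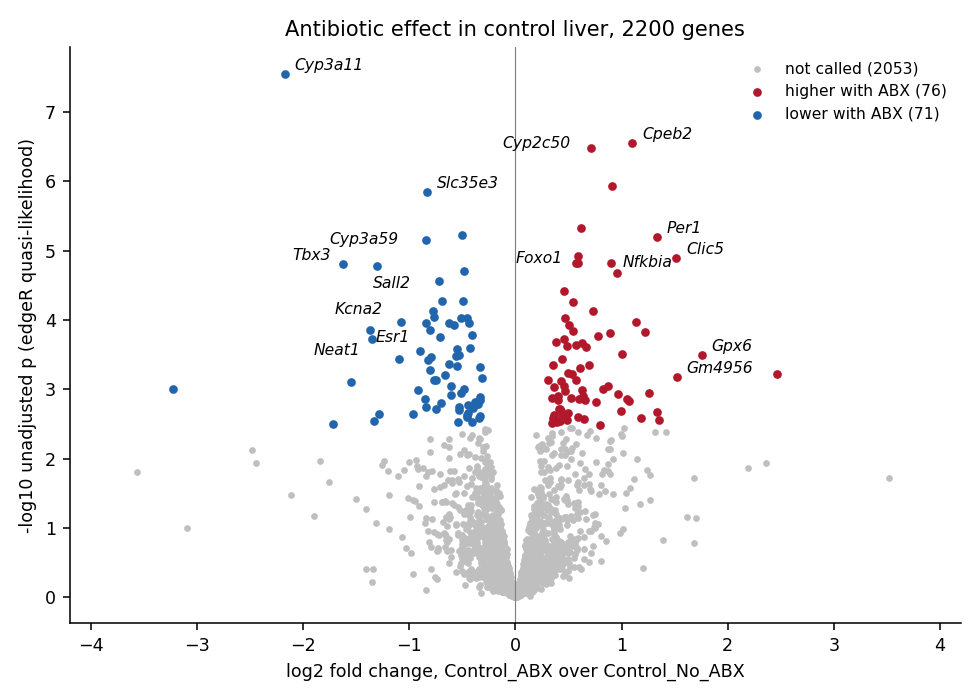
Log2 fold change (Control_ABX over Control_No_ABX, x axis) against -log10 of the unadjusted p (y axis) for 2200 genes. Red points are the 76 genes called higher, blue points the 71 called lower and grey points the genes not called, and Cyp3a11 stands alone at the upper left.

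Cyp3a11, the main mouse CYP3A enzyme of drug and steroid oxidation, fell with the smallest p of all genes tested, while several Cyp2c genes rose. Of 123 P450 genes of families 1 to 4, 27 were measured and 16 passed the filter. Of these 16, 5 rose and 3 fell, against 6.68% of all genes called, and the median of the 16 was 0.04 against -0.01 over all genes. Cyp3a11 stood at 533, 479, 590.02, 915 and 552 CPM in Control_ABX livers, against 2534, 2715, 1615, 3749 and 3203 CPM in Control_No_ABX livers. Every mouse given antibiotics lay below every mouse given none, and the means were 614 ± 173 CPM with antibiotics and 2763 ± 797 CPM without (SD, n = 5 each) (log2 fold change -2.17 ± 0.24 SE, adjusted p = 6.1e-05). Within plate column 3 the value was -1.91 (adjusted p = 0.011). Cyp3a59, a neighbour of the same subfamily, stood at 25.03, 40.5, 28.3, 35.2 and 30.3 CPM in Control_ABX livers, against 61.3, 74.97, 42.3, 53.5 and 52.7 CPM in Control_No_ABX livers (log2 fold change -0.84 ± 0.15 SE, adjusted p = 0.0017). These groups did not overlap either, but 61.7% of its measured windows also occurred in Cyp3a25 or Cyp3a57. Cyp4f17, of the Cyp4f family of fatty acid hydroxylases, was lower with antibiotics, at 20.1 to 21.8 CPM in Control_ABX livers, against 23.2 to 39.8 CPM in Control_No_ABX livers (log2 fold change -0.63 ± 0.14 SE, adjusted p = 0.0071), and its adjusted p was 0.052 within plate column 3.

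Cyp2c enzymes oxidise drugs and arachidonic acid. Cyp2c50 stood at 1043, 1047, 1051, 1072 and 1047 CPM in Control_ABX livers, against 665, 626, 529.8, 734 and 646 CPM in Control_No_ABX livers (log2 fold change 0.72 ± 0.10 SE, adjusted p = 0.00024). The 5 mice given antibiotics lay close together, and all were above the mice given none. Only 338 of its 1436 measured bases were coding, the rest lying in exons of transcripts without an annotated reading frame. Cyp2c68 stood at 405, 453, 501, 489 and 394 CPM in Control_ABX livers, against 323, 233, 264, 279 and 290.1 CPM in Control_No_ABX livers (log2 fold change 0.69 ± 0.17 SE, adjusted p = 0.015), again with no overlap. Cyp4f14, which hydroxylates leukotriene B4, stood at 551, 633, 650.5, 702 and 585 CPM in Control_ABX livers, against 452, 421, 298, 475 and 404 CPM in Control_No_ABX livers (log2 fold change 0.61 ± 0.15 SE, adjusted p = 0.016). Cyp2c23, an arachidonic acid epoxygenase, was also higher (log2 0.62 ± 0.16 SE, adjusted p = 0.025), a call lost on leaving out mouse 2, 4, 5, 7, 8 or 10 (0.53 to 0.62). Cyp2c67 was higher (log2 0.66 ± 0.18 SE, adjusted p = 0.03), a call lost without mouse 2, 4, 5, 6, 7 or 8 (0.55 to 0.66) and with library totals (adjusted p = 0.055).

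Other members of the same family did not pass the test. They are named here after their values were seen. Cyp2c69 stood at 22.8, 18.8, 19.9, 16.4 and 12.5 CPM in Control_ABX livers, against 18.9, 9.05, 5.33, 4.60 and 6.23 CPM in Control_No_ABX livers (log2 fold change 1.03 ± 0.31 SE, adjusted p = 0.053). Mouse 6 overlapped the mice given antibiotics, and without it the value was 1.52 (adjusted p = 0.0018). That gene was measured over 50 bp only. Cyp2c29, a Cyp2c gene known to respond to the constitutive androstane receptor, stood at 627 to 845 CPM in Control_ABX livers, against 497 to 828 CPM in Control_No_ABX livers (log2 fold change 0.03 ± 0.19 SE, adjusted p = 0.96). Its sign turned with library totals and without mouse 4 or 8. Cyp2c38 (-0.31), Cyp2c39 (-0.65), Cyp4f13 (0.05) and Cyp2d22 (0.22) likewise gave log2 values without a call.

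**Figure D2:**
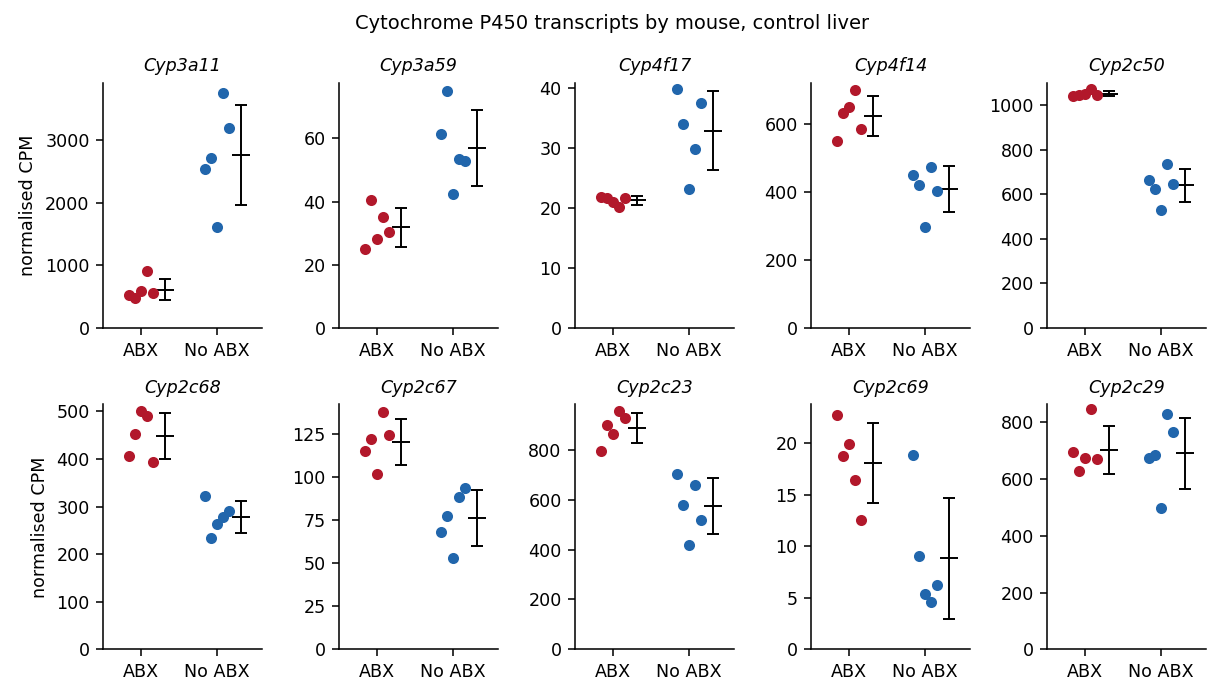
Normalised CPM (y axis, linear from 0) of 10 P450 genes in each mouse, Control_ABX in red on the left and Control_No_ABX in blue on the right, with mean and SD beside the points (n = 5 each). Cyp3a11, Cyp3a59 and Cyp4f17 lie lower with antibiotics, Cyp4f14, Cyp2c50, Cyp2c68, Cyp2c67 and Cyp2c23 higher, and Cyp2c29 at like levels.

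Other enzymes and transporters of drugs and bile acids were mostly not called, like most of all genes tested (6.68% called). Of 14 tested flavin, aldehyde and other oxidation enzymes, 2 fell (14.3%), against 3.23% of all genes called lower. Aox1, aldehyde oxidase, stood at 18.6, 25.1, 15.6, 21.4 and 20.1 CPM in Control_ABX livers, against 34.4, 32.8, 21.3, 33.9 and 31.3 CPM in Control_No_ABX livers (log2 fold change -0.61 ± 0.16 SE, adjusted p = 0.024). Mouse 8 was lowest among the mice given none and within the range of the mice given antibiotics. The call was lost without mouse 3, 6, 7, 9 or 10 (-0.60 to -0.53) and within plate column 3 (adjusted p = 0.1). When only rows lying over a gene by 100 bp or more were counted, the value was -1.79 (adjusted p = 0.0041). Of the 250 measured bases of Aox1, 81 were coding and 0 untranslated, the rest lying in exons of transcripts without an annotated reading frame. Aldh3a2, fatty aldehyde dehydrogenase, was lower too (log2 -0.55 ± 0.16 SE, adjusted p = 0.046), a call lost without mouse 1, 2, 3, 4, 5, 6, 7, 9 or 10 (-0.58 to -0.42). Within plate column 3 it gave -0.34 (adjusted p = 0.43), and with a term for plate column -0.33 (adjusted p = 0.34). Aldh1a1 (-0.11) and Fmo1 (-0.13) were not called. The 7 conjugation enzymes, the 10 drug and bile transporters and the 4 genes of bile acid synthesis that were tested gave 0 calls by edgeR and 0 by DESeq2, with 1, 3 and 1 genes in that order at an unadjusted p under 0.05. Their medians were -0.12, 0.27 and 0.08. Of all genes, 6.68% were called and 19.9% had an unadjusted p under 0.05, so lists this short can give 0 calls. Abcc2, the canalicular exporter of conjugates, stood at 639 to 777 CPM in Control_ABX livers, against 428 to 643 CPM in Control_No_ABX livers (log2 fold change 0.26 ± 0.13 SE, adjusted p = 0.29). Akr1d1, the steroid 5-beta-reductase of bile acid synthesis, stood at 274, 283, 277, 329.6 and 279.5 CPM in Control_ABX livers, against 188, 214, 169, 279 and 224 CPM in Control_No_ABX livers (log2 fold change 0.43 ± 0.15 SE, adjusted p = 0.092). Only mouse 9 of the mice given none reached the lowest values of the mice given antibiotics. The value was 0.54 without mouse 9 (adjusted p = 0.036), and within plate column 3 it was 0.59 (adjusted p = 0.011).

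Tbx3 and Esr1, both transcription factors, fell. Tbx3, a T-box factor of hepatocytes near the central vein, stood at 13.3, 17.7, 45.2, 27.2 and 38.4 CPM in Control_ABX livers, against 68.5, 104, 116, 65.04 and 83.1 CPM in Control_No_ABX livers. All 5 mice given antibiotics lay below all mice given none (log2 fold change -1.63 ± 0.28 SE, adjusted p = 0.0023), and within plate column 3 the adjusted p was 0.076. Of 9 tested nuclear receptors and partners, Esr1 alone was called (11.1%), against 6.68% of all genes called. Esr1, estrogen receptor alpha, stood at 17.97, 16.6, 22.5, 23.9 and 15.5 CPM in Control_ABX livers, against 25.99, 31.8, 57.3, 33.1 and 24.9 CPM in Control_No_ABX livers (log2 fold change -0.84 ± 0.18 SE, adjusted p = 0.0071). Mouse 8 was highest, and without it the value was -0.59 (adjusted p = 0.0059). Within plate column 3 its adjusted p was 0.076, and with the control libraries alone it was 0.06. Foxa2, a factor of liver identity, stood at 135, 55.8, 58.96, 49.8 and 36.3 CPM in Control_ABX livers, against 115, 71.9, 124, 119.7 and 150.5 CPM in Control_No_ABX livers (log2 fold change -0.78 ± 0.29 SE, adjusted p = 0.13). Mouse 1 lay with the mice given none, and leaving it out gave -1.21 (adjusted p = 0.0033).

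Of 6 tested genes of the glucocorticoid and fasting response, Per1 and Foxo1 rose and Fkbp5 fell, against 6.68% of all genes called. Foxo1, an activator of gluconeogenesis that insulin restrains, stood at 173, 201, 194, 239.7 and 182 CPM in Control_ABX livers, against 128, 141, 131, 118 and 138 CPM in Control_No_ABX livers (log2 fold change 0.59 ± 0.11 SE, adjusted p = 0.0023). The groups did not overlap, and the call held within plate column 3 (adjusted p = 0.016). Per1, a repressor of the circadian clock, stood at 19.3, 48.6, 44.3, 60.3 and 34.9 CPM in Control_ABX livers, against 12.99, 19.6, 16.5, 15.4 and 17.5 CPM in Control_No_ABX livers (log2 fold change 1.34 ± 0.22 SE, adjusted p = 0.0017). Mouse 1 lay with the mice given none, while the other 4 mice given antibiotics lay above all of them. Without mouse 1 the value was 1.52 (adjusted p = 3.5e-06), and within plate column 3 the adjusted p was 0.1. Of the other clock genes tested, Bhlhe40 stood at 64.5 to 124 CPM in Control_ABX livers, against 61.6 to 122 CPM in Control_No_ABX livers (log2 fold change 0.22 ± 0.18 SE, adjusted p = 0.55). Only 411 of the 1435 measured bases of Bhlhe40 were coding, and 0 were untranslated. Fkbp5, a co-chaperone of the glucocorticoid receptor, was lower at 28.9 to 57.8 CPM in Control_ABX livers, against 48.9 to 81.5 CPM in Control_No_ABX livers (log2 fold change -0.53 ± 0.15 SE, adjusted p = 0.037), a call lost without mouse 1, 2, 3, 5, 7, 8 or 10 (-0.56 to -0.40) and within plate column 3 (adjusted p = 0.27). The labels do not state the time of day of collection.

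**Figure D3:**
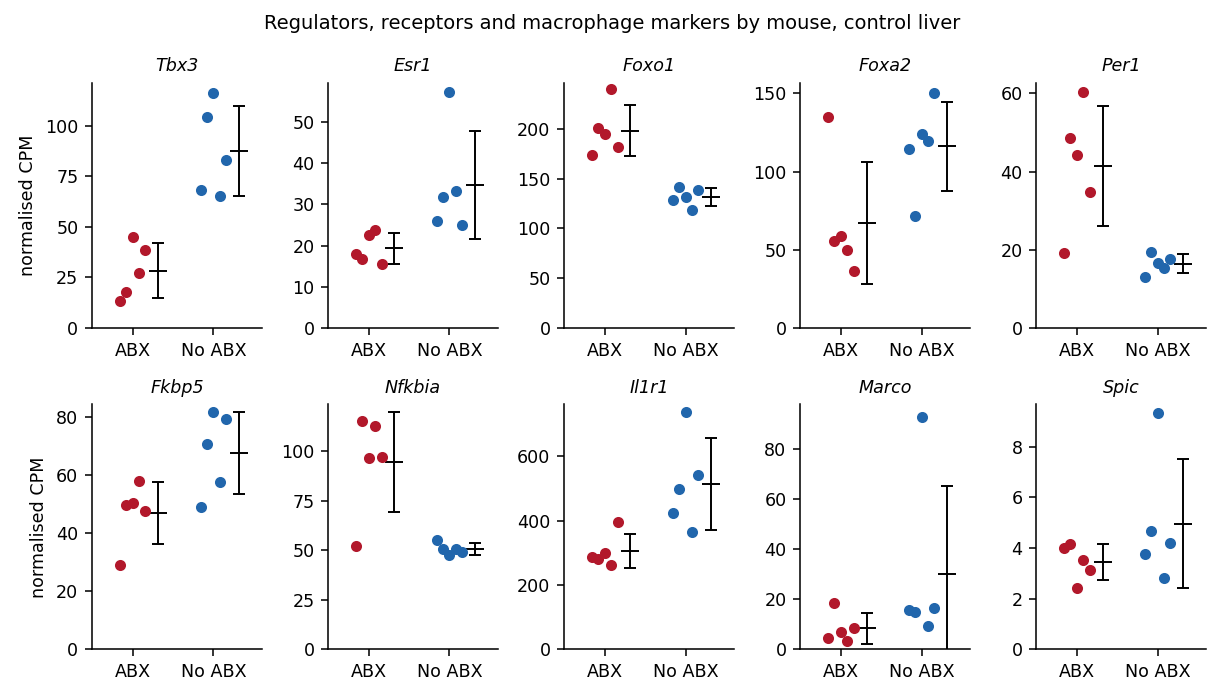
Normalised CPM (y axis, linear from 0) of 10 regulators, receptors and macrophage genes in each mouse, Control_ABX in red on the left and Control_No_ABX in blue on the right, with mean and SD beside the points (n = 5 each, the lower SD bar of Marco ends at the axis). Tbx3 and Foxo1 separate the groups, mouse 1 is the low red point of Per1 and Nfkbia, and mouse 8 is the high blue point of Esr1, Il1r1, Marco and Spic.

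Immune genes were mostly not called, as were most of all genes tested (6.68% called). Of 15 tested interferon response genes and 4 genes of MHC class I and class II, 0 were called by edgeR or DESeq2, with 0 and 1 at an unadjusted p under 0.05 and medians of -0.04 and 0.12. Lists of this length can give 0 calls where 6.68% of all genes are called. Tgtp2, an interferon-induced GTPase that shares 89.7% of its measured windows with Tgtp1, stood at 4.60 to 7.59 CPM in Control_ABX livers, against 4.36 to 6.85 CPM in Control_No_ABX livers (log2 fold change 0.16 ± 0.17 SE, adjusted p = 0.66). Of 15 genes of microbial product sensing and NF-kB, Nfkbia rose and Fas fell (13.3%), against 6.68% of all genes called, and DESeq2 called Nfkbia alone. Nfkbia, the inhibitor that NF-kB itself induces, stood at 52.3, 115, 96.4, 113 and 96.9 CPM in Control_ABX livers, against 55.2, 50.6, 47.7, 50.5 and 49.2 CPM in Control_No_ABX livers (log2 fold change 0.90 ± 0.16 SE, adjusted p = 0.0023). The mice given antibiotics other than mouse 1 lay above all mice given none. Without mouse 1 the value was 1.05 (adjusted p = 3.5e-06), and within plate column 3 the adjusted p was 0.092. Fas, a death receptor, stood at 10.1 to 11.5 CPM in Control_ABX livers, against 11.8 to 18.2 CPM in Control_No_ABX livers (log2 fold change -0.41 ± 0.12 SE, adjusted p = 0.046), a call lost without mouse 1, 2, 3, 4, 5, 6, 8, 9 or 10 (-0.44 to -0.31) and within plate column 3 (adjusted p = 0.19). Nod1, a sensor of bacterial peptidoglycan, stood at 25.9 to 35.1 CPM in Control_ABX livers, against 29.7 to 58.1 CPM in Control_No_ABX livers (log2 fold change -0.31 ± 0.16 SE, adjusted p = 0.3). Il1r1, the receptor of interleukin 1, was the 1 called gene of 4 cytokine and chemokine genes (25%), against 6.68% of all genes called. It stood at 287, 281, 299, 263 and 395 CPM in Control_ABX livers, against 425, 497, 737, 363 and 543 CPM in Control_No_ABX livers (log2 fold change -0.75 ± 0.19 SE, adjusted p = 0.021). Its call was lost without mouse 4 or 8 (-0.70 to -0.58), and within plate column 3 the adjusted p was 0.052.

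Markers of other liver cells were mostly not called, as were most of all genes tested (6.68% called). In bulk liver, fewer cells of a type and less RNA per cell cannot be told apart. Of 13 Kupffer cell markers, 2 were measured and 0 called by edgeR (1 at an unadjusted p under 0.05, and 1, Marco, by DESeq2), and their sum was 6.89 to 22.8 CPM with antibiotics and 12.3 to 102 CPM without. Marco, a scavenger receptor of Kupffer cells, stood at 4.49, 18.6, 6.88, 3.36 and 8.49 CPM in Control_ABX livers, against 15.9, 14.9, 93.1, 9.50 and 16.7 CPM in Control_No_ABX livers (log2 fold change -1.84 ± 0.64 SE, adjusted p = 0.11). Mouse 8 was far above the others, and without it the value was -0.78 (adjusted p = 0.42). Marco was measured over 71 bp. Spic, a factor of red pulp and liver macrophages, stood at 2.42 to 4.16 CPM in Control_ABX livers, against 2.82 to 9.33 CPM in Control_No_ABX livers (log2 fold change -0.50 ± 0.34 SE, adjusted p = 0.45). The 6 tested monocyte and macrophage genes summed to 150 to 202 CPM with antibiotics and 129 to 271 CPM without. Adgre1, a surface marker of macrophages, stood at 14.3 to 27.6 CPM in Control_ABX livers, against 14.997 to 37.99 CPM in Control_No_ABX livers (log2 fold change -0.08 ± 0.33 SE, adjusted p = 0.93). Pecam1, an endothelial marker, stood at 38.02 to 50.6 CPM in Control_ABX livers, against 46.7 to 74.6 CPM in Control_No_ABX livers and was not called. The 3 tested sinusoidal endothelial genes, the 9 of stellate cells and matrix and the 2 of cholangiocytes gave 0 calls by either tool, and 0 at an unadjusted p under 0.05. Of 3 tested B and plasma cell genes, Xbp1 fell (log2 -0.45 ± 0.13 SE, adjusted p = 0.039), which hepatocytes also express in the unfolded protein response, a call lost without mouse 2, 3, 4, 5, 6, 8, 9 or 10 (-0.46 to -0.36) and within plate column 3 (adjusted p = 0.37). Ighm, the immunoglobulin heavy chain of B cells, stood at 15.1 to 20.6 CPM in Control_ABX livers, against 14.2 to 28.6 CPM in Control_No_ABX livers (log2 fold change -0.24 ± 0.16 SE, adjusted p = 0.45). Both tested T and NK cell markers were not called, and the markers summed to 0.802 CPM at most with antibiotics and 1.19 CPM at most without. Mouse 8, whose Marco, Spic, Adgre1 and Pecam1 levels were the highest of its group, also had the highest Esr1 and Il1r1 and the lowest Aox1 of its group. The part of cell makeup in these results was not tested.

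Most metabolic genes were not called, and the same held for all genes tested (6.68% called). Of 7 tested genes of the urea cycle and amino acid breakdown, Agxt and Kynu rose (28.6%), against 6.68% of all genes called. Agxt, which detoxifies glyoxylate, stood at 434, 467, 502, 514 and 497 CPM in Control_ABX livers, against 364, 371, 312, 368 and 339 CPM in Control_No_ABX livers (log2 fold change 0.46 ± 0.09 SE, adjusted p = 0.0042), without overlap, and the call held within plate column 3 (adjusted p = 0.019). Kynu, the kynureninase of tryptophan breakdown, was higher (log2 0.31 ± 0.08 SE, adjusted p = 0.021), a call lost without mouse 3, 7 or 8 (0.26 to 0.29) and with library totals (adjusted p = 0.17). Cps1, the entry enzyme of the urea cycle, was not called (log2 0.19 ± 0.10 SE, adjusted p = 0.32), nor was Got1, an aspartate aminotransferase (log2 0.57 ± 0.19 SE, adjusted p = 0.076), which gave 0.70 without mouse 1 (adjusted p = 0.016) and was called by DESeq2. Crat, carnitine acetyltransferase, fell as the 1 called gene of 4 in fatty acid oxidation (25%, against 6.68% of all genes called). It stood at 12.2, 14.5, 13.2, 13.3 and 13.7 CPM in Control_ABX livers, against 18.3, 23.6, 21.2, 29.3 and 16.8 CPM in Control_No_ABX livers (log2 fold change -0.71 ± 0.16 SE, adjusted p = 0.0088). It was measured over 52 bp. Of 8 genes of fatty acid and triglyceride synthesis and 9 of lipoproteins and lipases, 0 were called by edgeR or DESeq2, with 1 of each list at an unadjusted p under 0.05. Scd1, stearoyl-CoA desaturase, stood at 4292 to 6939 CPM in Control_ABX livers, against 4881 to 9295 CPM in Control_No_ABX livers (log2 fold change -0.47 ± 0.23 SE, adjusted p = 0.27).

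Of 11 transcripts of the mitochondrial genome, mt-Cytb alone was called (9.09%), against 6.68% of all genes called. Their median was 0.22 against -0.01 over all genes. The cytochrome b transcript mt-Cytb stood at 37929 to 52418 CPM in Control_ABX livers, against 25346 to 35775 CPM in Control_No_ABX livers (log2 fold change 0.44 ± 0.11 SE, adjusted p = 0.013), a call lost without mouse 4 (0.36) and within plate column 3 (adjusted p = 0.079). The large ribosomal RNA mt-Rnr2 was not called (log2 0.53 ± 0.16 SE, adjusted p = 0.053), although without mouse 2 it gave 0.65 (adjusted p = 0.018) and without mouse 6 0.70 (adjusted p = 0.0088). It was measured over 69 bp. Nuclear genes of oxidative phosphorylation (6 tested) and of the mitochondrial ribosome (7 tested) gave 0 calls by either tool, with 2 and 0 at an unadjusted p under 0.05. Of 11 genes of oxidative stress and glutathione, 2 rose and 1 fell (27.3%), against 6.68% of all genes called. Gpx6, a glutathione peroxidase, stood at 3.53, 4.34, 5.77, 5.30 and 5.90 CPM in Control_ABX livers, against 1.54, 0.646, 1.33, 2.82 and 0.842 CPM in Control_No_ABX livers (log2 fold change 1.76 ± 0.42 SE, adjusted p = 0.012), low in all mice but without overlap. Prdx4, a peroxiredoxin of the endoplasmic reticulum, was higher (log2 0.40 ± 0.11 SE, adjusted p = 0.03), a call lost without mouse 3, 4, 5, 7, 9 or 10 (0.33 to 0.39). Sod1, the cytosolic superoxide dismutase, was lower (log2 -0.53 ± 0.15 SE, adjusted p = 0.034), a call lost without mouse 1, 2, 3, 4, 6, 7 or 10 (-0.57 to -0.41). Its counts came from exons of transcripts without an annotated reading frame. Srxn1, sulfiredoxin, was not called (log2 -0.46 ± 0.16 SE, adjusted p = 0.092), although its groups did not overlap. Single called genes of other lists were Rps4x of the cytosolic ribosome (log2 0.36 ± 0.11 SE, adjusted p = 0.042, lost without mouse 4, 5, 6, 7, 8, 9 or 10 (0.30 to 0.38)), Ube2h of ubiquitin transfer (log2 0.50 ± 0.15 SE, adjusted p = 0.039, lost without mouse 1, 2, 3, 4, 5, 7, 8, 9 or 10 (0.44 to 0.52)) and Serpina1d of the protease inhibitors. Serpina1d was higher (log2 0.35 ± 0.11 SE, adjusted p = 0.046), a call lost on leaving out any 1 of the 10 mice (0.31 to 0.37). The calls of Prdx4, Sod1, Rps4x, Ube2h and Serpina1d were also lost within plate column 3, with adjusted p of 0.088, 0.083, 0.087, 0.14 and 0.068 in that order. With library totals Prdx4 gave 0.26 (adjusted p = 0.047), Rps4x 0.22 (adjusted p = 0.13) and Serpina1d 0.22 (adjusted p = 0.087).

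Solute carriers, which move small molecules across membranes, formed the list with the most tested genes, 49 of 392. Of these, 4 rose and 6 fell (20.4%), against 6.68% of all genes called, and the median was -0.03. Slc35e3 stood at 11.1, 13.9, 10.97, 10.3 and 10.5 CPM in Control_ABX livers, against 17.2, 19.4, 20.2, 22.1 and 22.4 CPM in Control_No_ABX livers (log2 fold change -0.83 ± 0.13 SE, adjusted p = 0.00062). Slc12a7, a potassium chloride cotransporter, stood at 36.6, 28.4, 35.9, 30.9 and 32.7 CPM in Control_ABX livers, against 41.8, 55.3, 42.5, 47.2 and 44.6 CPM in Control_No_ABX livers (log2 fold change -0.49 ± 0.10 SE, adjusted p = 0.0052). Neither gene overlapped between the groups. Of the 1023 measured bases of Slc12a7, 274 were coding and 0 untranslated, the rest lying in exons of transcripts without an annotated reading frame. Slc2a9, a urate transporter, stood at 35.8, 39.9, 36.3, 42.4 and 32.8 CPM in Control_ABX livers, against 26.1, 22.1, 22.7, 29.99 and 27.3 CPM in Control_No_ABX livers (log2 fold change 0.55 ± 0.12 SE, adjusted p = 0.0081), also without overlap. Slc29a1, a nucleoside transporter, stood at 145 to 212 CPM in Control_ABX livers, against 118 to 152 CPM in Control_No_ABX livers (log2 fold change 0.46 ± 0.10 SE, adjusted p = 0.0071), and its adjusted p was 0.061 with library totals. Of its 258 measured bases, 0 were coding and 38 untranslated, the rest lying in exons of transcripts without an annotated reading frame. Slc34a2, a phosphate transporter, was lower at 1.99 to 7.63 CPM in Control_ABX livers, against 7.50 to 12.6 CPM in Control_No_ABX livers (log2 fold change -1.09 ± 0.26 SE, adjusted p = 0.013). Within plate column 3 the adjusted p was 0.021 for Slc35e3, 0.052 for Slc12a7, 0.016 for Slc2a9, 0.07 for Slc29a1 and 0.074 for Slc34a2. The calls of the remaining carriers were lost on leaving out single mice. That held for Slc46a3 (0.54) without mouse 2, 3, 7 or 10 (0.43 to 0.49), Slc25a27 (1.26) without mouse 3, 4, 5, 6, 8, 9 or 10 (1.03 to 1.30) and the amino acid carrier Slc7a7 (-0.91) without mouse 2, 3, 4, 6 or 10 (-0.91 to -0.77). It also held for the sulfate carrier Slc13a4 (-0.96) without mouse 1, 3, 4, 5, 8 or 10 (-1.03 to -0.56) and the amino acid carrier Slc43a1 (-1.72) without mouse 1, 2, 3, 5, 6, 7, 9 or 10 (-1.83 to -1.42). In column 3 the adjusted p was 0.25 for Slc46a3, 0.21 for Slc25a27, 0.057 for Slc7a7 and 0.1 for Slc13a4. Slc43a1 was not tested there, and with a term for plate column its adjusted p was 0.27.

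The largest changes among genes with a mean of 1 CPM or more included several genes outside these lists. Cpeb2, which binds the 3′ ends of messenger RNAs, stood at 153, 188, 166, 189.8 and 172 CPM in Control_ABX livers, against 89.01, 117, 51.2, 70.4 and 76.7 CPM in Control_No_ABX livers (log2 fold change 1.10 ± 0.15 SE, adjusted p = 0.00024). Clic5, an intracellular chloride channel protein, stood at 31.1, 24.6, 18.04, 10.8 and 15.1 CPM in Control_ABX livers, against 6.15, 3.55, 8.50, 8.46 and 8.26 CPM in Control_No_ABX livers (log2 fold change 1.52 ± 0.27 SE, adjusted p = 0.0023). Both separated the groups, with adjusted p of 0.068 and 0.07 within plate column 3. Gm4956 stood at 126, 147, 78.9, 136 and 117 CPM in Control_ABX livers, against 44.2, 33.3, 10.997, 61.9 and 59.8 CPM in Control_No_ABX livers (log2 fold change 1.52 ± 0.36 SE, adjusted p = 0.02), with an adjusted p of 0.074 within plate column 3 and 0.058 with the control libraries alone. A930038B10Rik (log2 1.14 ± 0.25 SE, adjusted p = 0.0071) and the zinc finger gene Zmat1 (log2 1.22 ± 0.27 SE, adjusted p = 0.0081) were also higher. On the lower side, Sall2, a zinc finger factor, stood at 3.85, 2.35, 4.28, 2.47 and 4.43 CPM in Control_ABX livers, against 10.5, 7.59, 6.66, 6.24 and 12.1 CPM in Control_No_ABX livers (log2 fold change -1.31 ± 0.24 SE, adjusted p = 0.0023). Kcna2, a potassium channel gene, stood at 6.42, 7.23, 5.95, 6.01 and 7.38 CPM in Control_ABX livers, against 10.9, 10.3, 22.99, 11.9 and 13.8 CPM in Control_No_ABX livers (log2 fold change -1.08 ± 0.23 SE, adjusted p = 0.0071), and gave -0.83 without mouse 8 (adjusted p = 0.015). The paraspeckle RNA Neat1 stood at 2.89 to 4.77 CPM in Control_ABX livers, against 4.50 to 16.2 CPM in Control_No_ABX livers (log2 fold change -1.35 ± 0.31 SE, adjusted p = 0.009), and 9130409I23Rik was lower too (log2 fold change -1.37 ± 0.29 SE, adjusted p = 0.0081). Within plate column 3 their adjusted p were 0.07 and 0.1 in that order. Cfd, complement factor D of adipose tissue and the 1 tested gene of the adipose, muscle, pancreas and gut list, was not called (log2 -2.48 ± 0.82 SE, adjusted p = 0.085). It gave -3.38 without mouse 1 (adjusted p = 0.044) and -1.63 without mouse 8 (adjusted p = 0.27).

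The other genes with the largest changes lost their calls when single mice were left out. Gramd1b, a sterol transfer protein, was higher (log2 1.33 ± 0.39 SE, adjusted p = 0.038), a call lost without mouse 1, 6, 8, 9 or 10 (0.72 to 1.45), and its value without mouse 1 was 0.72. Pik3c2g, a phosphoinositide kinase, was higher (log2 1.18 ± 0.35 SE, adjusted p = 0.042), lost without mouse 1, 2, 4, 6, 7, 8, 9 or 10 (0.996 to 1.30). Gm13522 (log2 1.36 ± 0.41 SE, adjusted p = 0.044) lost its call without mouse 2, 3, 4, 7, 8, 9 or 10 (1.16 to 1.52), and Gm11131 (log2 1.07 ± 0.30 SE, adjusted p = 0.03) without mouse 1, 2, 3, 4, 6, 7, 9 or 10 (0.93 to 1.09). Ahdc1 was lower (log2 -1.55 ± 0.38 SE, adjusted p = 0.022), at 49.3 to 153 CPM in Control_ABX livers, against 102 to 450.04 CPM in Control_No_ABX livers, with the groups overlapping, and its call was lost without mouse 2, 4, 7, 8 or 10 (-1.52 to -1.36). Vav1, a signalling protein of blood cells, was lower (log2 -1.33 ± 0.40 SE, adjusted p = 0.045), lost without mouse 1, 2, 3, 4, 6, 7, 8 or 10 (-1.36 to -1.01). Aatk, a kinase gene, was lower (log2 -1.28 ± 0.37 SE, adjusted p = 0.039), lost without mouse 1, 2, 3, 5, 7, 9 or 10 (-1.37 to -1.04). Only 66 of the 562 measured bases of Aatk were coding, and 0 were untranslated. These 7 genes gave, within plate column 3, adjusted p of 0.07 to 0.32.

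**Figure D4:**
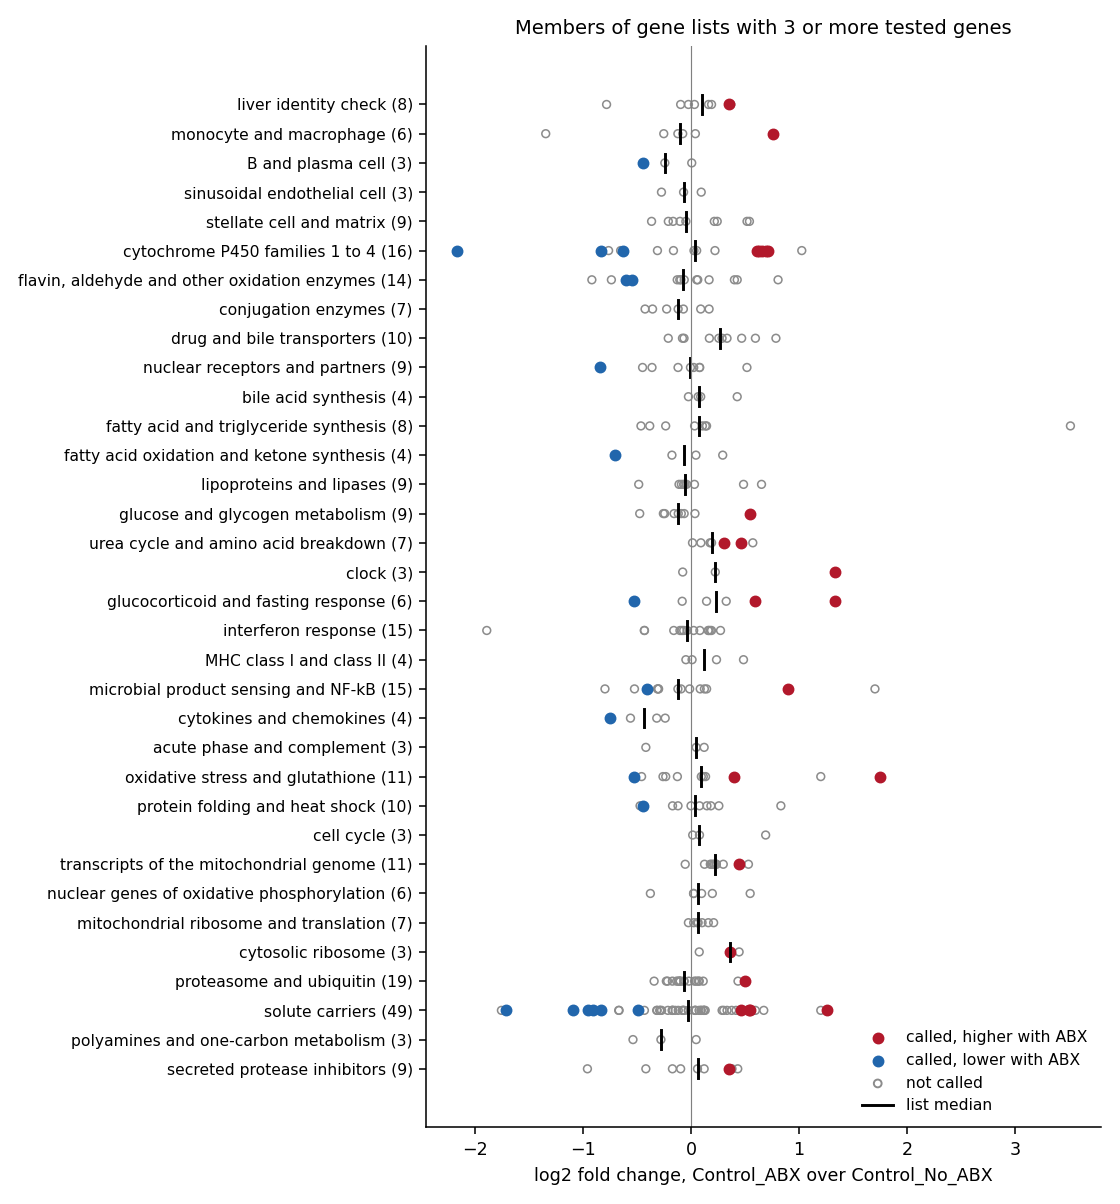
Log2 fold change (Control_ABX over Control_No_ABX, x axis) of each tested member of the gene lists with 3 or more tested genes (y axis, number tested in brackets). Filled red and blue points are members called higher and lower, open points are not called, and black bars are list medians, most of which lie near 0.

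Antibiotics were also compared with no antibiotics in the mice given anti-CD40, which share no library with the control mice. There, 350 of 2200 genes were called (15.9%), 191 higher (8.68%) and 159 lower (7.23%) with antibiotics, and 28.7% of genes had an unadjusted p under 0.05, against 19.9% in control liver. Of the 147 genes called in control liver, 33 were called there in the same direction and 8 in the opposite one. The difference between the antibiotic effects, control minus anti-CD40, was called for 166 genes (7.55%), above 0 for 70 (3.18%) and below 0 for 96 (4.36%), and 24% of genes had an unadjusted p under 0.05. Of the 166, 41 were among the 147. A term for plate column left 5 calls in the anti-CD40 comparison and 0 called differences by edgeR (282 at an unadjusted p under 0.05), while DESeq2 without that term called 200 differences. Plate column and group can hardly be told apart there, because the libraries of the anti-CD40 groups overlapped in column 4 through mouse 16 alone.

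Cyp3a11 changed by -2.17 ± 0.24 in control and -1.58 ± 0.23 in anti-CD40 mice (log2 fold change ± SE), a difference of -0.59 ± 0.32 SE, adjusted p = 0.28. Cyp2c50 changed by 0.72 ± 0.10 and 0.70 ± 0.11 in the same order (difference 0.02 ± 0.15 SE, adjusted p = 0.95). Cyp2c68 gave 0.69 ± 0.17 in control and 1.20 ± 0.18 in anti-CD40 mice (difference -0.51 ± 0.24 SE, adjusted p = 0.2). For these enzymes no difference was called. Cyp3a59 gave -0.84 ± 0.15 in control and 0.02 ± 0.18 in anti-CD40 mice (difference -0.86 ± 0.23 SE, adjusted p = 0.025), a call lost without mouse 14 (-0.77).

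Opposite directions were seen for Per1, at 1.34 ± 0.22 in control and -0.94 ± 0.22 in anti-CD40 mice (difference 2.28 ± 0.31 SE, adjusted p = 0.0005), and for Foxo1, at 0.59 ± 0.11 in control and -0.48 ± 0.11 in anti-CD40 mice (difference 1.07 ± 0.16 SE, adjusted p = 0.0005). Both genes were called in each setting, and both differences stayed called on leaving out each of the 20 mice. With plate column as a term the Per1 difference was 2.23 (adjusted p = 0.14) and the Foxo1 difference 0.79 (adjusted p = 0.14). Akr1d1 gave 0.43 ± 0.15 in control and 1.61 ± 0.17 in anti-CD40 mice (difference -1.18 ± 0.22 SE, adjusted p = 0.0038). Tgtp2 gave 0.16 ± 0.17 in control and 1.18 ± 0.11 in anti-CD40 mice (difference -1.02 ± 0.20 SE, adjusted p = 0.0035). Tbx3 gave -1.63 ± 0.28 in control and -0.24 ± 0.29 in anti-CD40 mice (difference -1.39 ± 0.40 SE, adjusted p = 0.042), a call lost without mouse 2, 4, 7, 8, 10, 13, 14, 15, 16, 17, 18 or 19 (-1.42 to -1.27).

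**Figure D5:**
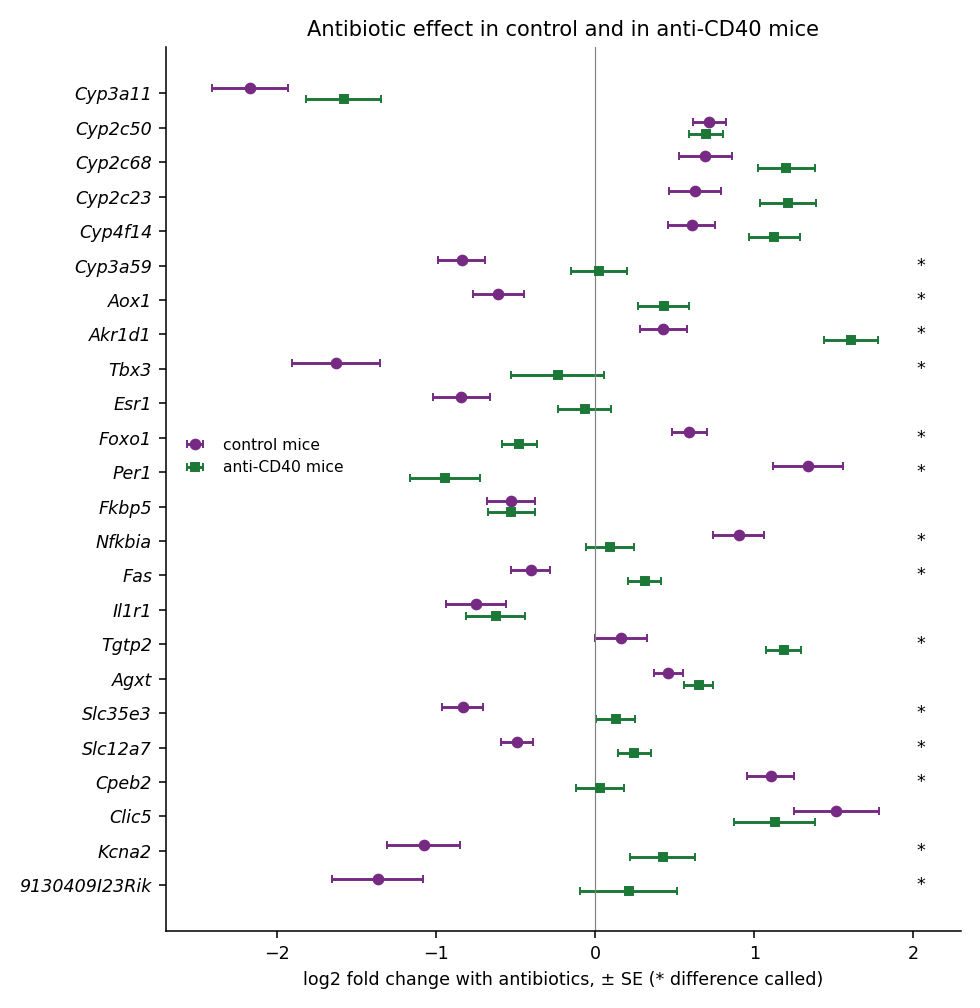
Log2 fold change with antibiotics ± SE (x axis) for 24 genes, in control mice (purple circles) and in anti-CD40 mice (green squares), from 5 against 5 mice each. Stars mark genes whose difference was called, and Per1 and Foxo1 lie on opposite sides of 0 in the 2 settings.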

How the data were processed

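Liver RNA of 20 mice was sequenced. Trimmomatic 0.38, HISAT2 2.1.0 and the build mm10 are named in the submitters' processing notes. Per the file headers, the authors made raw whole-number counts with featureCounts 1.5.0-p2, counting read pairs over the exons of each gene with no use of strand. The annotation in those headers is human (GRCh38, Ensembl 93), so the deposited identifiers carry no meaning for mouse alignments. Rows on chromosomes 20, 21 and 22 held 0 counts, and rows over mouse exons held 99.5% of all counts. No value was normalized before deposit.

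Positions were read as mm10 and intersected (bedtools 2.31.1) with GENCODE M21 exons. A row was attributed when it lay over exactly 1 gene by 50 bp or more. Rows over several genes (52.3% of counts) were left out of the gene tests. Antisense and near-identical genes cannot be separated.

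Genes were tested with edgeR 4.0.16 (R 4.3.3), by a robust quasi-likelihood F-test with TMM factors and a mean per group in 1 fit of all 20 libraries, adjusted over 2200 genes. The code was checked on simulated data. Alternatives covered scaling, filters, attribution, DESeq2 1.42.0, plate column and leaving out each mouse. The biological coefficient of variation was 16.7%.

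The comparison, the members and the 43 gene lists were chosen with earlier results of these data known, and 27 names matched by letters alone were taken out of the lists after the files were seen. The text names the 12 called genes that changed most in each direction with a mean of 1 CPM or more, up to 4 members of each list by smallest p, and family members with the smallest p. Aldh1a1, Apob, Fmo1, Adgre1, Tgtp2, 6 uncalled P450 genes and the genes under other observations were chosen after their values were seen. Of the genes this rule names, 2 are not reported here.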

Additional observations from a re-analysis of the deposited data

Results flagged for a closer look

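In 25 of 200 groups of 5 mice, 1 mouse lay far from the others by Dixon's criterion at 95%. Normally distributed values meet it in about 1 group in 20. These values were CPM of genes partly chosen by their values, all from the same 10 mice, so the 25 cannot be set against that rate. Mouse 8 gave 14 of these. In Control_ABX, mouse 1 was highest for Foxa2 (135 CPM), Cfd (5.13 CPM) and Gramd1b (10.6 CPM). In Control_ABX, mouse 2 was highest for Slc35e3 (13.9 CPM). In Control_ABX, mouse 4 was highest for Cyp3a11 (915 CPM), Cyp2c50 (1072 CPM), Akr1d1 (329.6 CPM) and Cmtm8 (147 CPM). In Control_ABX, mouse 5 was highest for Il1r1 (395 CPM) and Slc7a7 (3.87 CPM). In Control_No_ABX, mouse 6 was highest for mt-Rnr2 (25.6 CPM). In Control_No_ABX, mouse 8 was highest for Esr1 (57.3 CPM), Nod1 (58.1 CPM), Marco (93.1 CPM), Spic (9.33 CPM), Adgre1 (37.99 CPM), Pecam1 (74.6 CPM), Kcna2 (22.99 CPM), Cfd (29.8 CPM), Slc13a4 (9.16 CPM) and Plec (241 CPM). In Control_No_ABX, mouse 8 was lowest for Aox1 (21.3 CPM), Abcc2 (428 CPM) and Prkd3 (232 CPM). The share of counts from mitochondrial features was lowest in mouse 8 of Control_No_ABX, at 22.4%.

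The antibiotic effect differed between control and anti-CD40 mice (edgeR, adjusted p under 0.05) for 23 of the genes named. On the log2 scale, control minus anti-CD40, the difference was above 0 for Foxo1 (1.07), Per1 (2.28), Nfkbia (0.81), Cpeb2 (1.07), Bhlhe40 (0.91), Gramd1b (1.76), Ube2h (0.95), Fgfr2 (0.75) and Sox5 (0.85). It was below 0 for Cyp3a59 (-0.86), Aox1 (-1.04), Aldh3a2 (-0.82), Akr1d1 (-1.18), Tbx3 (-1.39), Fas (-0.72), Tgtp2 (-1.02), Slc35e3 (-0.96), Slc12a7 (-0.74), 9130409I23Rik (-1.58), Kcna2 (-1.50), Aldh1a1 (-0.95), Plec (-0.50) and Rffl (-0.41). With plate column as a term, 0 of these differences were called. Leaving out single mice ended the call for Rffl (14 of the 20 mice), Aldh3a2 (13), Nfkbia, Gramd1b and Tbx3 (12 each) and Bhlhe40 (11). The same held for 9130409I23Rik (6), Plec (3) and Cyp3a59 (1), while the remaining differences stayed called without each mouse. DESeq2 did not call the Rffl difference (adjusted p = 0.0501). With library totals, edgeR did not call the difference for Fgfr2 (adjusted p = 0.058), Nfkbia (0.053), Gramd1b (0.062), Bhlhe40 (0.064) or Plec (0.056).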

How the results depend on the processing

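The 147 genes called in control liver kept their direction in each alternative that tested them, and 25 were called in all 22. The count was 145 with the control libraries alone, 175 by DESeq2, 174 with library totals, 148 with RLE factors, 141 with nuclear genes, 130 without a filter, 155 at a mean of 5 CPM or more, 152 and 134 at an overlap of 1 and 100 bp, and 125 without mice 1 and 8, an alternative chosen after seeing the data. Only 120 of the 145 and 106 of the 174 were among the 147. Calls lost by edgeR with the control libraries alone included Esr1 (adjusted p = 0.06), Gm4956 (0.058), Sod1 (0.066), Slc7a7 (0.074) and Ahdc1 (0.11). The count of calls in control liver also moved with plate column. It was 77 with plate column as a term and 44 within plate column 3, where 2 mice fewer entered. The cause was not tested for the plate term. Leaving out each mouse in turn gave 89 to 137 calls. For anti-CD40 mice the count was 5 with plate column as a term and 225 to 364 without single mice. For the difference between the effects it was 0 with plate column as a term (282 at an unadjusted p under 0.05) and 88 to 194 without single mice, fewest without mouse 14 (88) and mouse 18 (94). The share of counts from mitochondrial rows differed by 3.64 percentage points of all counts (exact permutation p = 0.0556) and by 2.104 to 4.30 points of all counts without single mice, with p under 0.05 without mouse 2 (4.30) or mouse 6 (4.28) and lowest without mouse 8 (2.104). As a share of attributed counts it differed by 1.59 points (exact permutation p = 0.0238). Signs turned only for genes that were not called: Cyp2c29 with library totals (-0.11), without mice 1 and 8 (-0.070) and without single mice (-0.074 to 0.097, below 0 without mouse 4 or 8), Cyp4f13 with library totals (-0.082) and without mouse 8 (-0.021, with up to 0.12 without other mice), Apob with library totals (-0.099), Aldh1a1 with plate column as a term (0.042) and within column 3 (0.036), and Adgre1 without mice 1 and 8 (0.26) and without single mice (-0.21 to 0.21, above 0 without mouse 4 or 8). The cause of these turns was not tested. No paired analysis was possible because the mice carry numbers from 1 to 20 that no pair of groups shares. Low counts and the short measured parts limit the precision of single genes.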

Other observations

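Outside the lists and the largest changes, 14 further genes were called in control liver in all 22 alternatives. They were chosen after their values were seen, because their calls held. Higher with antibiotics were Fgfr2, a fibroblast growth factor receptor (log2 0.91 ± 0.14 SE, adjusted p = 0.00062), Gm41231 (0.96), Ank3, a membrane scaffold protein (0.89), the transcription factor Sox5 (0.74), the tight junction gene Cldn1 (0.63), Pdcd4, an inhibitor of translation (0.61), the kinase Prkd3 (0.57) and Cmtm8 (0.46). Lower were Pyroxd2 (-0.58), Gfra1, a receptor of GDNF (-0.51), Rffl (-0.48), Plec, a linker of the cytoskeleton (-0.45), Pcsk6, a proprotein convertase (-0.44), and the kinase Abl2 (-0.43). Fgfr2 stood at 28.4, 41.2, 29.02, 34.3 and 28.97 CPM in Control_ABX livers, against 21.1, 19.1, 13.7, 16.8 and 15.5 CPM in Control_No_ABX livers. Cldn1 stood at 204, 188, 209.8, 174 and 221 CPM in Control_ABX livers, against 151, 138, 123, 114 and 117 CPM in Control_No_ABX livers. Pyroxd2 stood at 34.3, 33.97, 31.1, 34.5 and 31.7 CPM in Control_ABX livers, against 49.05, 48.6, 52.8, 45.1 and 52.6 CPM in Control_No_ABX livers. None of these 3 genes overlapped between the groups, which follows in part from choosing genes whose calls held. Of all tested genes, 6.23% did not overlap.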
